A study of Mus musculus and Sus scrofa with 12 samples.

Results

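H3K4me3 peaks of the mouse embryonic forelimb were sorted by where H3K4me1 was called relative to each of them. The members were the 18336 H3K4me3 peaks on assembled chromosomes, of 258842 peaks in the 6 lists of the series, and each fell into 1 of 4 arrangements. H3K4me1 was "over" a peak when it covered the peak's midpoint. It was on both flanks or on one flank when it missed the midpoint but was called on both sides or on a single side of it, out to 2 kb past the edge. It was absent when no H3K4me1 lay from 2 kb before the peak to 2 kb after it. A gene took the arrangement of the widest H3K4me3 peak within 1 kb of any of its transcription start sites (TSSs) in NCBI RefSeq for GRCm38, the build of the peak lists.

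The samples were forelimbs of wild-type mouse embryos at E11.5, profiled by ChIPmentation, in which a transposase adds sequencing adapters to chromatin held by an antibody. The labels list 2 samples for each of H3K4me3, H3K4me1 and H3K27ac. Per the design text, littermates gave the biological replicates, the chromatin of each was split for technical replicates, and 1 µg of antibody went into each immunoprecipitation. Each mark has 1 consensus list of positions without scores, so there is no spread between replicates, the depth is unknown, and no test over animals was possible. Intervals of shares below are 95% Wilson intervals (Newcombe intervals for differences of shares). For a difference of medians (width or CpG ratio), the interval joins the extremes of the separate 95% intervals of the 2 medians. It is not itself a 95% interval. All of these cover counting error only, and neighbouring peaks or genes are not replicates. A forelimb also holds many cell types, so 2 marks on the same bases cannot be told apart from a mixture of cells that each carry 1 of them. The forelimb markers Prrx1, Tbx5, Twist1 and Msx1 all had H3K4me3 at the TSS and H3K27ac on the same peak. Over all coding genes 65.0% had H3K4me3, and 61.2% of those had H3K27ac. H3K4me3 was called at 2 of 8 heart genes and 1 of 10 liver genes. It was also called at 9 of 10 neuronal, 9 of 10 blood, 10 of 11 endothelial and 5 of 6 hindlimb genes. H3K4me3 alone therefore does not set the forelimb markers apart.

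H3K4me3 is placed mainly at promoters, by SETD1A, SETD1B, KMT2A and KMT2B complexes, and the SETD1 subunit CXXC1 binds unmethylated CpG. H3K4me1 is placed largely by KMT2C and KMT2D, marks enhancers, and typically borders active promoters where H3K4me3 gives way along the nucleosomes. H3K27ac is a mark of active promoters and enhancers. The arrangement describes where calls of the 2 forms lie relative to each other, and they can overlap.

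The promoters below are from genes of each arrangement. Each label names the arrangement at the gene's H3K4me3 peak, not at the printed bases. For each arrangement, the 250 bases before the TSS are printed for 1 member of the limb mesenchyme, hedgehog, FGF, BMP or WNT list. It had the widest H3K4me3 peak among the candidates, members with 1 entry in the RefSeq promoter table (GRCm38.p6). Genes on a chromosome excluded from printing were not candidates. Smad7, with both flanks and a wider peak (7395 bp) than Dusp6 (7323 bp), was not a candidate. Bmp5 was added after its values were seen, as the member of those lists with the lowest CpG content among those whose peak lay wholly in H3K4me1. Capitals mark CpG, every sequence runs 5′ to 3′ on the strand of the gene, and the intervals are chr11:19018970-19019219 (minus strand) for Meis1, chr10:99262981-99263230 (plus) for Dusp6, chr1:163313651-163313900 (minus) for Prrx1, chr13:53472781-53473030 (minus) for Msx2 and chr9:75775115-75775364 (plus) for Bmp5.
Meis1, H3K4me1 over the peak: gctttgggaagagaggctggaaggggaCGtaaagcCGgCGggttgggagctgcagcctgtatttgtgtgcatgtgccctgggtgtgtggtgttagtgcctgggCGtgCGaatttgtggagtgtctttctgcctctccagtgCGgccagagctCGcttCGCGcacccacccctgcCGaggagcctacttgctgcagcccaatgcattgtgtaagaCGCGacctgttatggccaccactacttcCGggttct
Dusp6, H3K4me1 on both flanks: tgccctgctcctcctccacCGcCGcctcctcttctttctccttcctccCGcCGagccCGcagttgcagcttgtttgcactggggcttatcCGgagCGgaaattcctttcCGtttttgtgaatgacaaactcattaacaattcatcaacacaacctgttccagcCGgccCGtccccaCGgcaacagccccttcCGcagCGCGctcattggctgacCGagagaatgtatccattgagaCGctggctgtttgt
Prrx1, H3K4me1 on one flank: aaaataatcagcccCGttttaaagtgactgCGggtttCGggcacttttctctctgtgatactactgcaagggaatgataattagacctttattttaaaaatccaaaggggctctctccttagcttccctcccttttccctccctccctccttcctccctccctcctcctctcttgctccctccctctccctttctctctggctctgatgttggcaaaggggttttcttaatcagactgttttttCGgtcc
Msx2, H3K4me1 absent: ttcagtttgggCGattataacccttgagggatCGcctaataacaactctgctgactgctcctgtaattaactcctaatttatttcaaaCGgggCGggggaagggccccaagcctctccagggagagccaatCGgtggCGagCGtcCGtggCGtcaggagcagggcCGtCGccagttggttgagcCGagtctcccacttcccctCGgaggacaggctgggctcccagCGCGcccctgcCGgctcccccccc
Bmp5, H3K4me1 over the whole peak: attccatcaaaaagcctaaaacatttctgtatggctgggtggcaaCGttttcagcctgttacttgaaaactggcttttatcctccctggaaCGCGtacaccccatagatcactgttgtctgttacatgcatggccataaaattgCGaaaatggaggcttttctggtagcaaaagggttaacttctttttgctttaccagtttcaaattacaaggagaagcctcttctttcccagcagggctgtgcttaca

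No base of the first 4 promoters lay in H3K4me1, whereas all 250 bases of the Bmp5 promoter did. H3K4me3 covered all 250 bases before Meis1, Dusp6 and Prrx1, 213 before Bmp5 and none before Msx2. CpG occurred 13 times before Meis1, which encodes a homeodomain factor of the proximal limb, and 16 times before Dusp6, which encodes a phosphatase that damps ERK signalling. It occurred 16 times before Msx2, which encodes a homeodomain factor of the limb margins, 4 times before Prrx1, a homeodomain factor of limb mesenchyme, and 4 times before Bmp5, a BMP ligand. Promoters with H3K4me3 had a median of 14 where H3K4me1 was over the peak, 19 with both flanks, 19 with one flank and 13 where it was absent. Prrx1 thus lay far below the median of its arrangement. The median over all coding-gene promoters in the table, with or without H3K4me3, was 10.

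Across the genome, H3K4me1 was over the centre of 7953 H3K4me3 peaks (43.4%, interval 42.7 to 44.1). It lay on both flanks of 1856 peaks (10.1%, 9.69 to 10.6), on one flank of 4353 (23.7%, 23.1 to 24.4) and was absent from 4174 (22.8%, 22.2 to 23.4). Where "over" instead meant any overlap of 1 bp, 73.3% of peaks were over, 0.295% had both flanks and 3.65% one flank, since most flanks ran into the H3K4me3 peak. Of the H3K4me1 flanks of the one-flank peaks, 84.6% entered the H3K4me3 peak, by a median of 1197 bp, and 95.6% extended past its edge, by a median of 2046 bp. At the both-flank peaks, 86.5% of flanks entered the peak, by a median of 1020.5 bp. The gap free of H3K4me1 between the 2 flanks had a median of 1869 bp, quartiles of 1323 and 2838 bp and a range of 801 to 8980 bp. It took up a median of 47.9% of the H3K4me3 peak's width. Of the over peaks, 1926 (24.2%) lay wholly inside H3K4me1.

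Peaks without H3K4me1 were mostly far from any: the nearest H3K4me1 was a median of 11557 bp away, and 15.9% of these peaks were over 50 kb from one. Few peaks lay close to the 2 kb limit, with 61 whose nearest H3K4me1 lay in the last 200 bp inside it and 54 in the first 200 bp outside it. A larger change of the limit mattered more. Of the peaks without H3K4me1, 21.8% had some within 5 kb, and the absent share was 17.8% with a reach of 5 kb. The arrangements also differed in how often the peak sat at a gene. Peaks overlapping the 1 kb around a TSS made up 92.7% of both-flank peaks (91.4 to 93.8), 88.5% of one-flank peaks, 80.7% of over peaks and 68.7% of peaks without H3K4me1 (67.3 to 70.1). Among the 3479 H3K4me3 peaks away from any TSS, H3K4me1 was over 44.2%, on both flanks of 3.91% and absent from 37.5%.

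The arrangement changed with the width of the H3K4me3 peak. Median widths were 3852.5 bp for peaks with both flanks, 3554 bp with one flank, 3230 bp for over peaks and 2903.5 bp without H3K4me1. The 949 bp between both flanks and absent fell to 110.5 bp (-314 to 533) where any overlap of 1 bp counted as over. From the narrowest to the widest decile of peaks, the share with both flanks went from 1.47% to 27%, and the share without H3K4me1 from 52.6% to 10.5%. The share over the centre was highest in the third decile, at 53.7%, and lowest in the widest, at 30.7%. The rule itself ties the arrangement to width. H3K4me1 was sought from 2 kb before to 2 kb after the peak, so the searched stretch grew with the peak. How much of the trend this sets was not tested. Narrow peaks were also less often at a TSS (40.0% in the narrowest decile against 88.4% in the widest), and the part of peak width in the arrangement was not tested beyond these deciles.

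**Figure D1:**
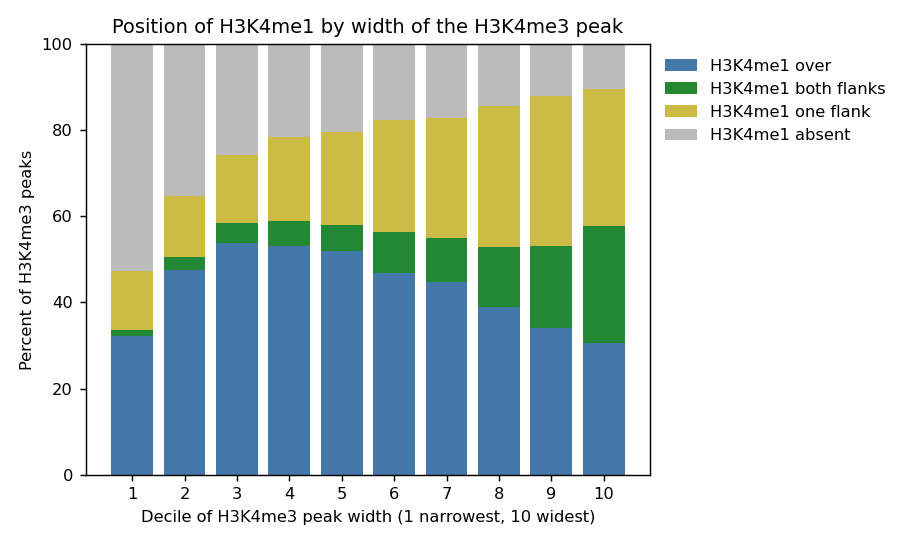
Bars split the H3K4me3 peaks of each width decile (x axis, 1 narrowest to 10 widest) into the 4 arrangements of H3K4me1 (y axis, percent of peaks). The both-flanks share grows from 1.47% to 27% and the absent share shrinks from 52.6% to 10.5% across the deciles. The stretch searched for H3K4me1 also grows with peak width.

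H3K27ac, which the sorting did not use, went with the position of H3K4me1. An H3K4me3 peak counted as having H3K27ac where any of its bases lay in an H3K27ac peak. At the 13665 peaks on coding TSSs, H3K27ac was called on 76.8% of both-flank peaks (74.7 to 78.8), 69.3% of one-flank peaks (67.8 to 70.8), 55.0% of over peaks (53.7 to 56.2) and 38.7% of peaks without H3K4me1 (36.8 to 40.7). Both flanks exceeded absent by 38.1 percentage points (35.2 to 40.8), or 22.4 points (16.2 to 27.3) with the wider 50% of H3K4me1 peaks alone, and exceeded over by 21.8 points (19.4 to 24.2). In each of 4 width quartiles the share was lowest without H3K4me1 and next lowest over the centre. In the widest quartile, from 3874 to 10912 bp, the shares were 80.8% with both flanks, 74.1% with one, 60.4% over and 42.6% without H3K4me1. In the narrowest quartile they were 55.4%, 57.8%, 44.5% and 33.4%, with overlapping intervals for both flanks and one flank.

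Under the centre rule a single flank lay mostly on the gene's side of the promoter. Of the 3137 one-flank peaks whose coding TSSs lay on 1 strand, 2270 had the H3K4me1 on the downstream side, towards the gene body (72.4%, 70.8 to 73.9). Where any overlap of 1 bp counted as over, few one-flank peaks were left and the share turned to 39.0% (34.1 to 44.1). The share was 73.0% for genes on the plus strand and 71.7% for genes on the minus strand. It was higher at peaks with H3K27ac, at 76.8% (75.0 to 78.6), than at peaks without, at 63.1% (60.0 to 66.0). Peaks with coding TSSs on both strands more often had both flanks: 29.1% of 1357 such peaks (26.8 to 31.6) against 10.3% of the 12308 with TSSs on 1 strand (9.75 to 10.8).

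At genes, 14158 of 21774 coding genes (65.0%) had H3K4me3 at the TSS. By the widest peak there, H3K4me1 was over the centre at 5892 genes (41.6%), on both flanks at 2003 (14.1%), on one flank at 3920 (27.7%) and absent at 2343 (16.5%). The both-flanks share was 0.233% where any overlap of 1 bp counted as over, 7.41% where 50% coverage was needed and 1.44% with the wider 50% of H3K4me1 peaks alone. The centre of a peak is not its start site, however: it lay a median of 640 bp downstream of the TSS. Of the 5892 genes with H3K4me1 over the centre, 2052 had H3K4me1 on the TSS base itself (34.8%, 33.6 to 36.1), and 3083 (52.3%) had it downstream only. Counted from the TSS, H3K4me1 within 2 kb was on the TSS at 2279 genes (16.1%), on both sides but off the TSS at 2040 (14.4%), downstream only at 5561 (39.3%), upstream only at 1515 (10.7%) and on neither side at 2763 (19.5%). H3K27ac was called on the H3K4me3 peak of 8666 of the 14158 genes (61.2%). Downstream H3K4me1 alone was thus the most frequent arrangement at a start site.

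The average promoter with H3K4me3 had 2 unequal shoulders of H3K4me1. The share of these genes inside an H3K4me1 peak was 31.1% at 1100 bp upstream, 16.1% at the TSS and 63.2% at 1700 bp downstream. H3K4me3 covered the TSS at 95.9% of them and H3K27ac at 54.7%. At the both-flank genes the shoulders were near equal, at 79.3% upstream and 76.4% downstream, around 4.94% at the TSS. At coding genes without H3K4me3, H3K4me1 covered the TSS at 11.3%. The rule fixes most of the H3K4me1 shape in each arrangement, including the downstream side at over genes, whose peak centre lay a median of 886.5 bp downstream of the TSS. It used neither the side of a single flank nor H3K27ac.

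**Figure D2:**
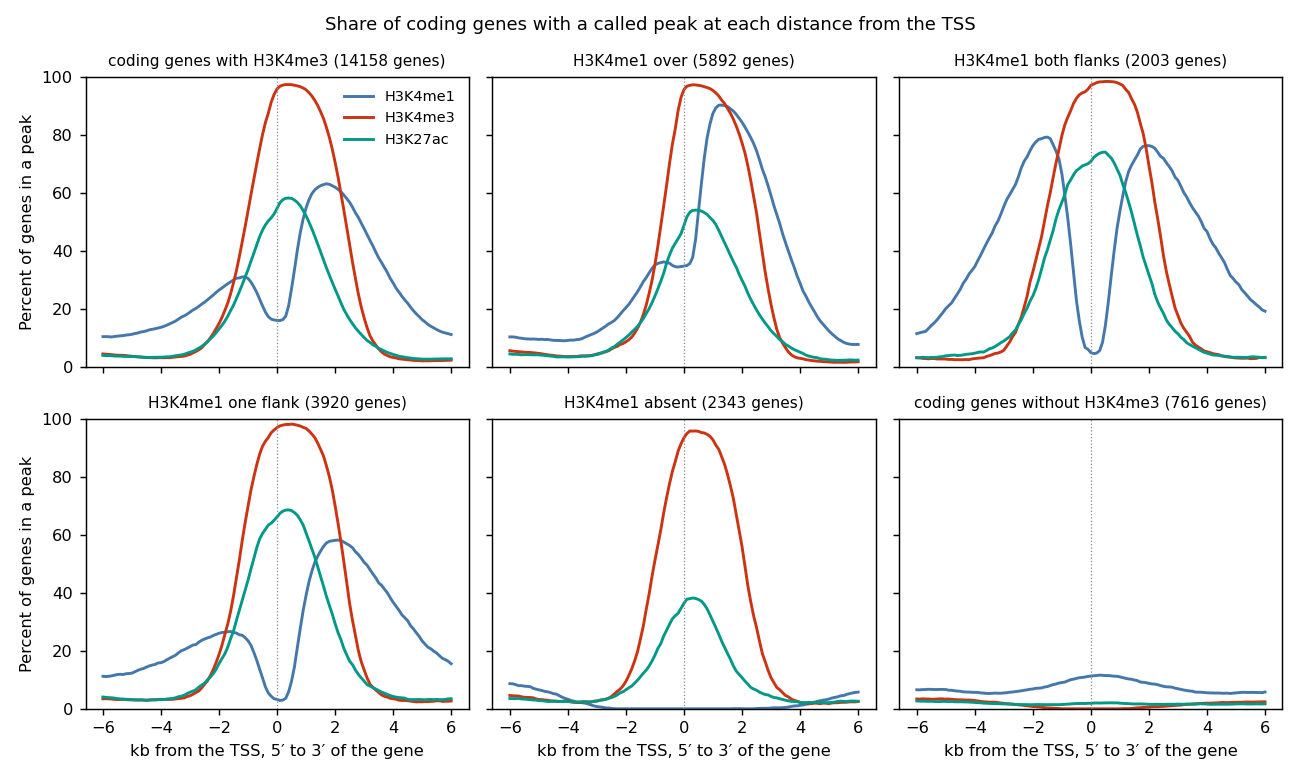
Each panel gives, for 1 group of coding genes, the percent inside a called peak (y axis) of H3K4me1 (blue), H3K4me3 (red) or H3K27ac (green) at each distance from the TSS in kb (x axis, 5′ to 3′ along the gene). Over all genes with H3K4me3 the H3K4me1 curve dips to 16.1% at the TSS and is higher downstream (63.2%) than upstream (31.1%).

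CpG content followed the H3K4me1 at the start site. The CpG ratio, the number of CpG over that given by the C and G content of the 1001 bp around the TSS, had a median of 0.53 where H3K4me1 lay on the TSS. It was 0.78 where H3K4me1 lay on both sides or downstream only, 0.77 upstream only and 0.67 on neither side, and 0.18 at coding genes without H3K4me3. In the quartile of genes with the lowest ratio (0.588 or less), 38.1% had H3K4me1 on the TSS (36.5 to 39.7). That share was 15.9% and 7.37% in the next quartiles and 2.99% (2.48 to 3.61) in the highest, where 50.9% had it downstream only.

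Within CpG quartiles, H3K27ac was less frequent where H3K4me1 lay on the TSS than where it lay beside it. Where H3K4me1 lay on the TSS, H3K27ac was called on 33.8%, 35.6%, 36.0% and 29.2% of the H3K4me3 peaks from the lowest to the highest CpG quartile. Where it lay on both sides, the shares were 63.7%, 69.2%, 76.5% and 84.3%. In each quartile the interval for H3K4me1 on the TSS lay below the intervals for both sides, downstream only and upstream only. With H3K4me1 on neither side the shares were 31.8%, 42.2%, 52.4% and 62.9%, and the intervals overlapped those of H3K4me1 on the TSS in the lowest 2 quartiles. In the highest quartile the on-TSS group held 106 genes, with an interval of 21.4% to 38.5%. Peak width was not held fixed here. From the narrowest to the widest quartile of H3K4me3 width, H3K4me1 on the TSS went from 25.2% to 9.64% of genes. H3K4me1 on both sides went from 5.82% to 25.6%. The part of width in these H3K27ac shares was not tested.

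**Figure D3:**
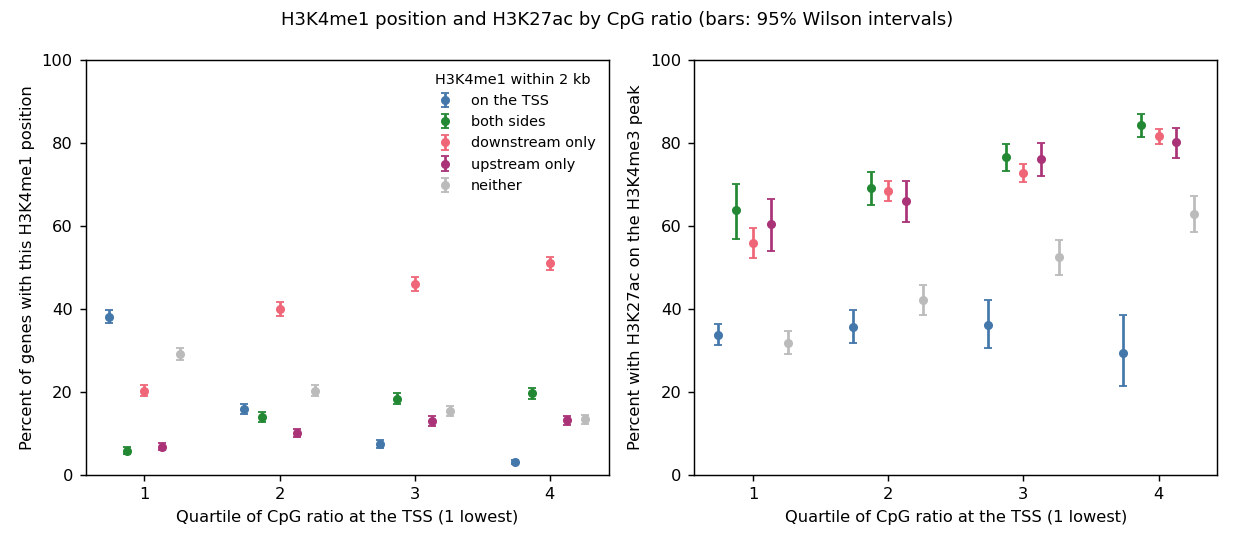
For quartiles of the CpG ratio at the TSS (x axis), the left panel gives the percent of genes with H3K4me1 in each position within 2 kb of the TSS and the right panel the percent of those genes with H3K27ac on the H3K4me3 peak; bars are 95% Wilson intervals. H3K4me1 on the TSS (blue) falls from 38.1% to 2.99% of genes, and H3K27ac in that group stays between 29.2% and 36.0%.

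Promoter motifs were searched on both strands of the 250 bases before the TSS for the 11324 of 14158 genes found in the promoter table. GGGCGG, the GC box bound by SP factors, was in 49.5% of promoters with H3K4me1 on the TSS, 65.9% with it on both sides, 66.0% downstream only, 63.6% upstream only and 54.1% neither. It was in 10.5% of coding promoters without H3K4me3 and 43.1% of all. TATAAA, the core of the TATA box, was in 8.30%, 4.27%, 5.19%, 6.11% and 7.98% of the same groups, in 23.5% without H3K4me3 and in 12.3% of all coding promoters. CCAAT, bound by NF-Y, was in 31.8% of on-TSS promoters and in 35.9% to 37.6% of the other groups, against 36.3% of all. Of the printed promoters, Meis1, Dusp6 and Msx2 held CCAAT, Msx2 alone held GGGCGG, and none held TATAAA. The GC box contains a CpG, so its share and the CpG ratio are not separate measures.

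Limb patterning genes were described by lists, set against the shares over all 14158 genes given above. All 32 limb mesenchyme genes had H3K4me3 at the TSS and 31 had H3K27ac on that peak, against 61.2% of all genes with H3K4me3. By peak centre, 9 were over, 7 had both flanks, 12 one flank and 4 had no H3K4me1. Counted from the TSS, 15 had H3K4me1 upstream only, 5 downstream only, 4 on both sides, 1 on the TSS and 7 on neither side. The 15 include Prrx1, Tbx5, Tbx15, Tbx18, Twist1, Irx3, Sall1, Alx4, Osr1, Osr2, Lhx2 and Hic1. The side depends on the curated TSS used. At Prrx1 and Hic1 the upstream H3K4me1 covered the annotated 5′ end of the gene, which lies before that TSS. Their peaks were wide, with a list median of 5314.5 bp against 3502 bp over all genes with H3K4me3, and 26 of the 32 lay in the widest quartile of genes. In that quartile 12 of the 26 had H3K4me1 upstream only, where 16.5% of all genes did. With a reach of 5 kb, chosen after seeing the data, 13 of the 32 had it upstream only and 10 on both sides, against 10.5% and 21.5% of all genes.

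At Prrx1 (chromosome 1, 163245119 to 163315145, minus strand, GRCm38) H3K4me3 covered 7907 bp. H3K4me1 ran from 643 to 4807 bp upstream of the curated TSS at 163313650, and downstream the next H3K4me1 began at 26312 bp. The annotated 5′ end of the gene, at 163315145, lay inside that upstream H3K4me1. At Tbx5, the T-box factor that starts forelimb outgrowth, H3K4me1 lay 1743 to 4106 bp upstream, and none followed for 9537 bp downstream. Irx3, a proximal homeodomain factor, had H3K4me1 from 818 bp upstream and again from 4426 bp downstream, past the end of its 3702 bp H3K4me3 peak. Tbx2, a T-box repressor on chromosome 11 at 85832615 to 85841948, had the widest H3K4me3 peak at a coding TSS, 10912 bp. H3K4me1 covered 68.4% of it, from 1452 to 8916 bp downstream of the TSS. Hand2, Msx2, Twist2 and Meis2 had no H3K4me1 within 2 kb of peaks 4945 to 8050 bp wide that all carried H3K27ac. The nearest H3K4me1 to the Hand2 TSS was 24125 bp upstream, and to the Msx2 TSS 3911 bp upstream. Hand2 is a bHLH factor of the posterior limb bud, upstream of Shh.

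**Figure D4:**
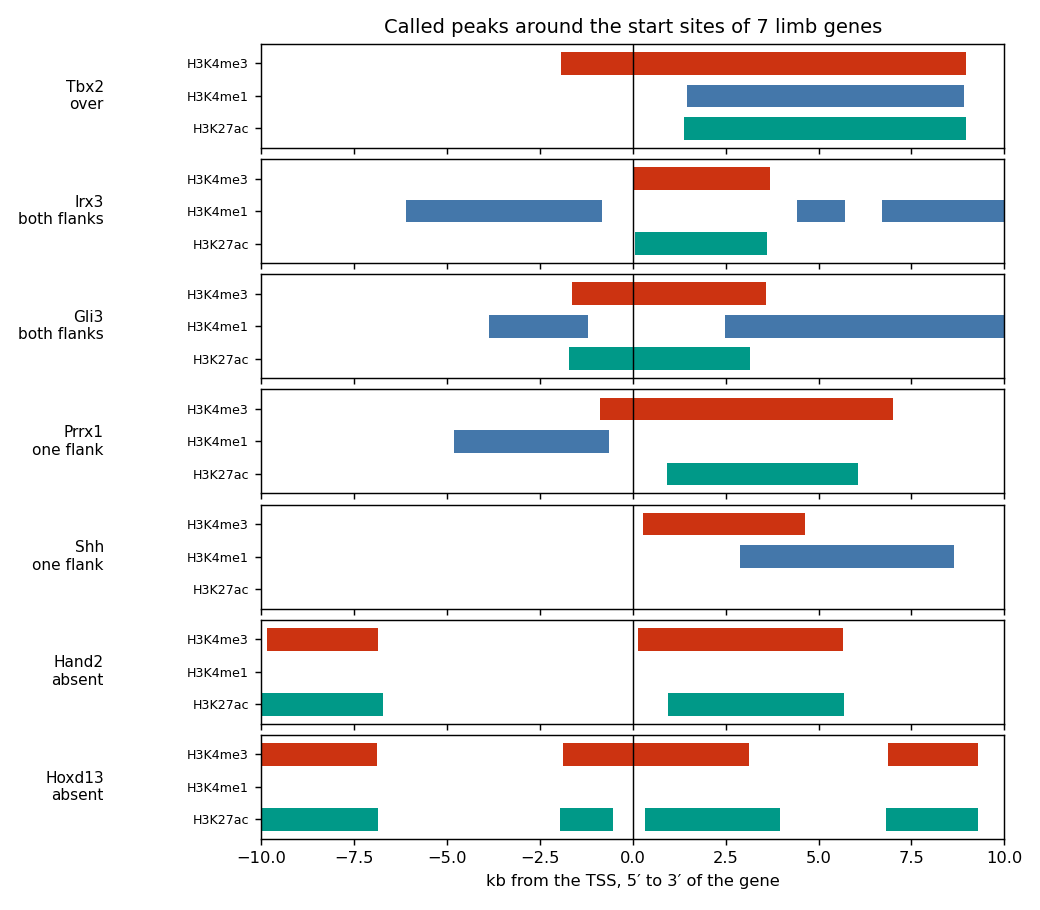
Called peaks of H3K4me3 (red), H3K4me1 (blue) and H3K27ac (green) within 10 kb of the TSS of 7 limb genes (x axis, kb from the TSS, 5′ to 3′), with the arrangement by peak centre under each name and bars that reach the edge cut there. H3K4me1 lies downstream only at Tbx2 and Shh, upstream only at Prrx1, on both flanks at Irx3 and Gli3, and is missing at Hand2 and Hoxd13.

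All 14 hedgehog pathway genes had H3K4me3, and none had the absent arrangement. At Shh, the ligand of the posterior limb margin (chromosome 5, 28456840 to 28467101, minus strand), the 4354 bp peak had H3K4me1 from 2877 to 8655 bp downstream of the TSS and carried no H3K27ac. Upstream of Shh the nearest H3K4me1 was 328037 bp away. The receptors and co-receptors were mixed: Ptch1 and Boc had one flank, Smo and Cdon were over, and Gas1 had both flanks. Among the transducers, Gli3 and Sufu had both flanks, while Gli1, Gli2 and Kif7 were over. Gli1, a direct pathway target, was the only member with H3K4me1 on the TSS, and its 3302 bp peak lay wholly inside H3K4me1 with H3K27ac. Gli3, the main repressor of the pathway in the limb, had H3K4me1 from 1220 to 3871 bp upstream and from 2489 to 13543 bp downstream.

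In the FGF list, 12 of 14 genes had H3K4me3: 3 over, 4 both flanks, 3 one flank and 2 absent. Fgf10, the mesenchymal ligand, had a 4875 bp peak with H3K27ac and H3K4me1 upstream only, from 757 to 2652 bp. Fgf8, the ligand of the apical ectodermal ridge, had a 2580 bp peak without H3K27ac, no H3K4me1 within 2 kb, and the nearest at 3854 bp upstream. Fgf4 and Fgf17, also ridge ligands, had no H3K4me3. Fgf9, another ridge ligand, had a 6561 bp peak with H3K27ac and H3K4me1 on the TSS. The feedback genes Dusp6, Spry2 and the effector Etv5 had both flanks, and Spry1 and Spry4 had one flank, downstream, each with H3K27ac. The receptor genes differed: Fgfr1 had both flanks, Fgfr2 was over, and Fgfr3 had none.

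All 17 BMP and 21 WNT genes had H3K4me3. In the BMP list 6 had both flanks, 5 one flank, 4 were over and 2 absent. The targets and inhibitors Id2, Id3, Smad6 and Smad7 had both flanks with H3K4me1 upstream only within 2 kb of the TSS, and Id1 had it downstream. Grem1 and Bmp5 lay wholly inside H3K4me1; Grem1, the BMP antagonist that sustains the ridge, carried H3K27ac and Bmp5 did not. Bmp2 and Bambi had none within 2 kb. In the WNT list 6 had both flanks, 8 one flank, 5 were over and 2, Ror1 and Dkk1, absent. Wnt5a, a ligand of limb outgrowth, had a 10748 bp peak with H3K4me1 over 7.82% of it, from 1354 to 6031 bp upstream. The ligand genes Wnt3, Wnt3a, Wnt7a, which acts in dorsal ectoderm, and Wnt10b were over or one flank without H3K27ac. The targets Axin2 and Lef1 had both flanks with H3K27ac.

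Of the 12 retinoic acid genes 4 were over, 4 had both flanks, 2 one flank and 2 none. The synthetic enzyme Aldh1a2 and the degrading enzyme Cyp26a1 lay wholly in H3K4me1 without H3K27ac. Cyp26b1, the distal limb's degrading enzyme, had an 8012 bp peak with both flanks and H3K27ac. Of the 11 cartilage genes with H3K4me3, the chondrogenic regulators Sox9 and Sox5 had both flanks and Sox6 had one flank with H3K4me1 on the TSS, and Col9a1, a cartilage collagen, lay wholly in H3K4me1 at a CpG ratio of 0.21. In this list 5 of 11 had H3K4me1 on the TSS, against 16.1% of all genes with H3K4me3. The median CpG ratio of the list was 0.53, against 0.73 over those genes. In their lowest CpG quartile 38.1% had H3K4me1 on the TSS.

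Posterior HoxA and HoxD genes pattern the forearm and digits. Hoxd10, Hoxd11, Hoxd12 and Hoxd13 all had H3K4me3 without H3K4me1 within 2 kb, Hoxd10 and Hoxd11 by the same 2447 bp peak. Hoxd13 (chromosome 2, 74668225 to 74671603) had a 5008 bp peak with H3K27ac, 16833 bp from the nearest H3K4me1 upstream and 18614 bp downstream. Hoxd9 had one flank downstream, Hoxa11 one flank downstream, Hoxa13 one flank upstream from 469 bp, and Hoxa10 both flanks. Hoxa9 had no H3K4me3. Thus 4 of 8 were absent, where 16.5% of all genes were, and these share a cluster and are not independent. The count also depends on the reach, since the nearest H3K4me1 to the Hoxd10 TSS lay 2566 bp downstream. Counted from the TSS, 4 of the 8 had H3K4me1 on neither side within 2 kb and 2 within 5 kb. Over all genes these shares were 19.5% and 14.9%. In the HoxB and HoxC list 7 of 16 were absent, 6 had one flank and 3 were over, and Hoxb7 and Hoxb8 shared 1 peak. Of the hindlimb genes, Tbx4, Hoxc10 and Hoxc11 were absent, Pitx1 had one flank and Isl1 both flanks. None of these 5 had H3K27ac on the peak, against 61.2% of all genes.

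Genes used by most cells were described the same way. Over all genes with H3K4me3, H3K4me1 lay downstream only at 39.3%, on both sides at 14.4% and on neither side at 19.5%. It lay on the TSS at 16.1% and upstream only at 10.7%. All 73 ribosomal protein genes with H3K4me3 had H3K27ac on the peak, against 61.2% of all genes. H3K4me1 lay downstream only at 43, on both sides at 22, on neither side at 8, and at none on the TSS or upstream only. Their median width was 3524 bp, close to that of all genes. The 17 writers and erasers of H3K4 methylation had H3K4me1 downstream only at 12, on both sides at 4, and at Kdm5b on neither side within 2 kb of the TSS. Kmt2c and Kmt2d, the H3K4me1 methyltransferases, each had it downstream only, from 972 and 815 bp. Of 14 housekeeping genes 7 had it downstream only, 3 on both sides, 2 upstream only and 2 on the TSS.

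**Figure D5:**
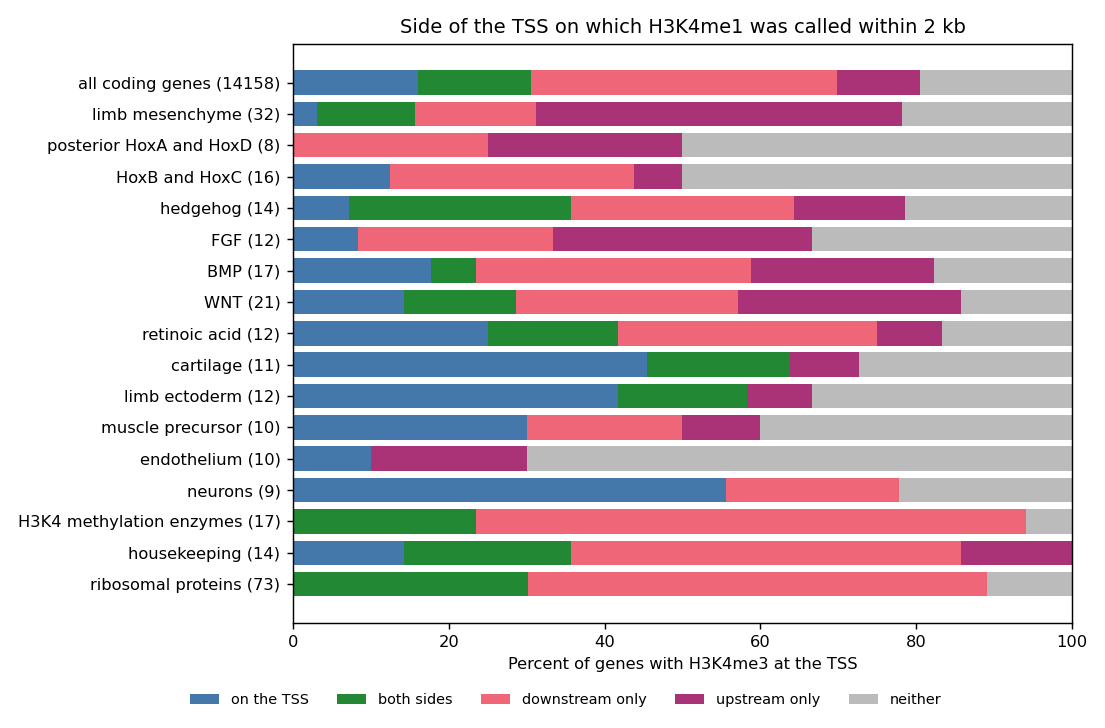
Bars split the genes with H3K4me3 in each list (number in brackets) by where H3K4me1 was called within 2 kb of the TSS (x axis, percent of genes), with all coding genes on top. Upstream only makes up 15 of 32 limb mesenchyme genes and 0 of 73 ribosomal protein genes, against 10.7% of all genes.

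Markers of other cell types that a forelimb can hold followed. Over all genes with H3K4me3, H3K4me1 was over at 41.6%, on both flanks at 14.1%, on one flank at 27.7% and absent at 16.5%. It lay on the TSS at 16.1%. The lists were short, and no difference from these shares was tested. Of the 9 neuronal genes with H3K4me3, 5 (Tubb3, Snap25, Syt1, Stmn2 and Nefl) had H3K4me1 on the TSS, 5 peaks of the list lay wholly inside H3K4me1, and none carried H3K27ac. Of all H3K4me3 peaks, at a TSS or away from one, 10.5% lay wholly inside H3K4me1. Of all coding genes with H3K4me3, 61.2% had H3K27ac on the peak. Of the 12 limb ectoderm genes 5 had H3K4me1 on the TSS, among them Krt5, a basal keratin, Cdh1, the epithelial cadherin, and Sp6, a ridge factor, whose peaks were wholly covered and without H3K27ac. Dlx5 also had H3K4me1 on the TSS but carried H3K27ac, as did Trp63, Dlx6, Sp8 and En1, and H3K4me1 was absent at Trp63, Krt14, Epcam and En1. Of the 10 endothelial genes none was over or had both flanks, 5 had one flank and 5 (Cdh5, Kdr, Flt1, Tie1 and Emcn) none. The 10 muscle precursor genes were over at 5, including Myf5 and Myod1 with H3K4me1 on the TSS, and absent at Pax3, Pax7 and Myog. The 9 blood genes and 6 neural crest and glial genes with H3K4me3 were over at 3 and 3, with one flank at 3 and 3. In a whole forelimb, fewer cells of a type and less signal per cell cannot be told apart.

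The widest peaks of each arrangement included genes outside these lists. After Tbx2, the widest with H3K4me1 over the centre lay at Bahcc1 (9540 bp), at Mab21l1 and Nbea, which share 1 peak, and at Islr2 (8600 bp), which alone of these lacked H3K27ac. With both flanks they lay at Irx5 (9146 bp), Bcl11a, Brd2 with H2-DMa, and Sox11 (8116 bp). With one flank, after Wnt5a, they lay at Prdm16 (9730 bp), Gsc, Prrx1 and Arl6ip4, whose peak is shared with Ogfod2 and lacked H3K27ac. Without H3K4me1 they lay at Msx2 (8050 bp), Wwp2, Tfap2b and the shared promoter of Ccdc12 and Nbeal2 (6820 bp). The widest gaps between 2 flanks were at Hoxa3 (8980 bp), Tbx15 (7668 bp), Wdr35, Plk2 and Pdgfra (7002 bp), where H3K4me1 overlapped none of the H3K4me3 peak. Tbx15 is a T-box factor and Pdgfra a growth factor receptor of mesenchyme.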

How the data were processed

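Per the design text, reads cropped to 50 bp were aligned to GRCm38/mm10 and peaks called in a broad mode at an irreproducible discovery rate below 0.01. The submitters' processing notes name Bowtie2 2.3.5, Trimmomatic 0.39, SAMtools 1.9, FastQC 0.11.9 and deepTools 3.5. The tool that called the peaks was not given in the sources used here. The authors deposited positions only, 1 consensus list per mark. Here Python 3.11.15 with numpy 2.4.6 computed the arrangements; 17 H3K4me3 peaks off assembled chromosomes were not used. Positions around the TSS were taken from the curated start site (5′-most) within 1 kb of the peak. Functions were tested on simulated peaks, Wilson intervals were checked in scipy 1.17.1, and figures used matplotlib 3.10.9. Named genes are members of the 21 fixed lists, the 5 genes with the widest peak per arrangement and the 5 with the widest gap. The arrangement, the lists and the count from the TSS were chosen with earlier results of these data known. Alternatives covered the meaning of over, the flank reach, H3K4me1 width, the flank minimum, the TSS window, the peak chosen per gene and, added after seeing the data, autosomes only and strand from any annotated gene.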

Additional observations from a re-analysis of the deposited data

How the results depend on the processing

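No paired analysis was possible because each mark has 1 consensus list and no values per replicate; for the same reason no replicate could be left out, and without scores no stricter peak threshold could be run. Over 9 results and 10 alternatives, 36 of 71 values stayed within the interval of the first value and 35 did not. No difference between both flanks and absent changed sign. With any 1 bp of overlap as over, however, the width interval reached below zero, and the single flanks were no longer mostly downstream (39.0% against 72.4%). The main values were 43.4% over, 10.1% both flanks, 23.7% one flank, 22.8% absent, 72.4% downstream, an H3K27ac difference of 38.1 points, a width difference of 949 bp, a CpG ratio difference of 0.12 (differences are both flanks minus absent) and 14.1% of genes with both flanks. When any 1 bp of overlap counted as over they were 73.3%, 0.295%, 3.65%, absent as before, 39.0%, 30.7 points, 110.5 bp (-314 to 533), 0.10 and 0.233%; the downstream share then rested on the few one-flank peaks whose H3K4me1 does not touch them. With 50% coverage needed, over was 47.6%, both flanks 5.93%, the width difference 878.5 bp and both-flank genes 7.41%. With a 1 kb reach, both flanks were 9.12%, one flank 22.9%, absent 24.6% and both-flank genes 13.2%. With a 5 kb reach these were 14.0%, 24.9%, 17.8% and 17.8%, downstream 69.2%, the H3K27ac difference 33.1 points and the width difference 816 bp. With the wider 50% of H3K4me1 peaks alone, over was 24.5%, both flanks 1.19%, one flank 14.7%, absent 59.7%, the H3K27ac difference 22.4 points, the width difference 669 bp, the CpG difference 0.050 and both-flank genes 1.44%; fewer H3K4me1 peaks were used there. With 500 bp needed on a flank, both flanks were 9.41%, absent 23.9% and both-flank genes 13.4%. On autosomes absent was 21.7%. Causes of the other shifts were not tested.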

Other observations

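The X chromosome stood apart in the position of H3K4me1. Of its 602 H3K4me3 peaks, 314 had no H3K4me1 within 2 kb (52.2%, interval 48.2 to 56.1), against 21.7% of 17726 autosomal peaks (21.1 to 22.4). Single autosomes ranged from 19.5% on chromosome 15 to 26.8% on chromosome 12. At coding TSSs the X had 50.5% without H3K4me1, against 16.6% on autosomes. Both flanks were found at 3.49% of X peaks and 10.4% of autosomal peaks, and over at 23.6% and 44.1%. H3K4me1 peaks covered 1.57% of the X and 9.56% of the autosomes, H3K4me3 1.04% and 2.34%, and H3K27ac 0.678% and 2.46%. H3K27ac was called on 54.8% of X and 50.8% of autosomal H3K4me3 peaks. The labels used here do not give the sex of the embryos, and the part of X copy number or of calling thresholds in these values was not tested.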
